A study of Mus musculus with 6 samples.

Results

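Elastic fibres and their microfibrils are described here through 10 genes, Eln, Fbn1, Fbn2, Mfap2, Mfap5, Mfap4, Fbln1, Fbln2, Fbln5 and Emilin1, chosen by name as components of these structures. All 10 had a row among the 39171 mouse genes of the deposited table, and all 10 were among the 13624 genes that averaged at least 1 FPKM and were tested. FPKM scales fragments to transcript length and to the number of fragments mapped, so levels can be compared between genes. The study sequenced polyadenylated RNA from the heart ventricles of neonatal mice at 2 days after birth (P2, 3 libraries) and 1 day after birth (P1, 3 libraries). Both ages were wild type and of the outbred CD-1 stock. The tissue is described as non-manipulated, and the sex of the animals is not given in the labels.

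An elastic fibre has an amorphous core of crosslinked elastin laid on a scaffold of fibrillin microfibrils. Tropoelastin, the soluble product of Eln, is gathered into globules with the help of fibulins, aligned on the microfibrils and crosslinked by lysyl oxidases. Microfibrils also hold latent TGF-beta and BMP complexes in the matrix. In the heart, elastic fibres are found in the walls of the coronary arteries, in the valves and beneath the endocardium and epicardium, and much of the fibrillin and fibulin RNA is made by fibroblasts and other mesenchymal cells.

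The libraries were alike in what they detected, with between 13355 and 13429 genes at 1 FPKM or more. The FPKM sum was 807632 to 858436 in P2 libraries and 716968 to 754510 in P1 libraries, and mitochondrial transcripts held 38.2%, 33.6% and 39.5% of it in P2 replicates 1 to 3, against 30.8%, 34.5% and 32.2% in P1 replicates 1 to 3. Heart muscle markers were abundant in all libraries, with Tnni3 between 2048 and 2257 FPKM. However, Myh6, Actc1 and Myl2 were listed at 0 in all 6 libraries and Tnnt2 in the 3 P1 libraries, so a value of 0 in this table may be a failed estimate. None of the 10 elastic fibre genes was listed at 0 in any library. The extraction protocol names 3 hearts for each age but does not tie a library to a heart or litter, so each p-value rests on the spread among these 6 libraries.

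Between P2 and P1 ventricles, Mfap5 was the elastic fibre gene that stood apart, with the higher level in P2. It averaged 38.7 ± 3.40 FPKM in P2 ventricles and 22.5 ± 2.32 FPKM in P1 ventricles (SD, n = 3 each), a ratio of 1.72. The means of the other 9 genes differed between the ages by less than 15%, from -8.81% for Eln to 14.4% for Fbn1, both P2 relative to P1. No gene of the 10 passed the test over all genes (limma on log2(FPKM + 1), two-sided, Benjamini-Hochberg adjusted p under 0.05), where 0.161% of the tested genes did, that is 0.0734% higher and 0.0881% lower in P2. Tnnt2, whose values of 0 in P1 may be failed estimates, was among the genes called. The number called without genes listed at 0 is given in the last section. Unadjusted p-values under 0.05 were found for Mfap5 and Fbn1, both higher in P2, that is for 2 of 10 genes against 18.6% of all tested genes (10.7% higher and 7.89% lower). The count is near this background and is not a result about these genes. Log2 changes are P2 minus P1 throughout, and the added 1 FPKM makes them understate the change of genes with low levels.

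**Figure D1:**
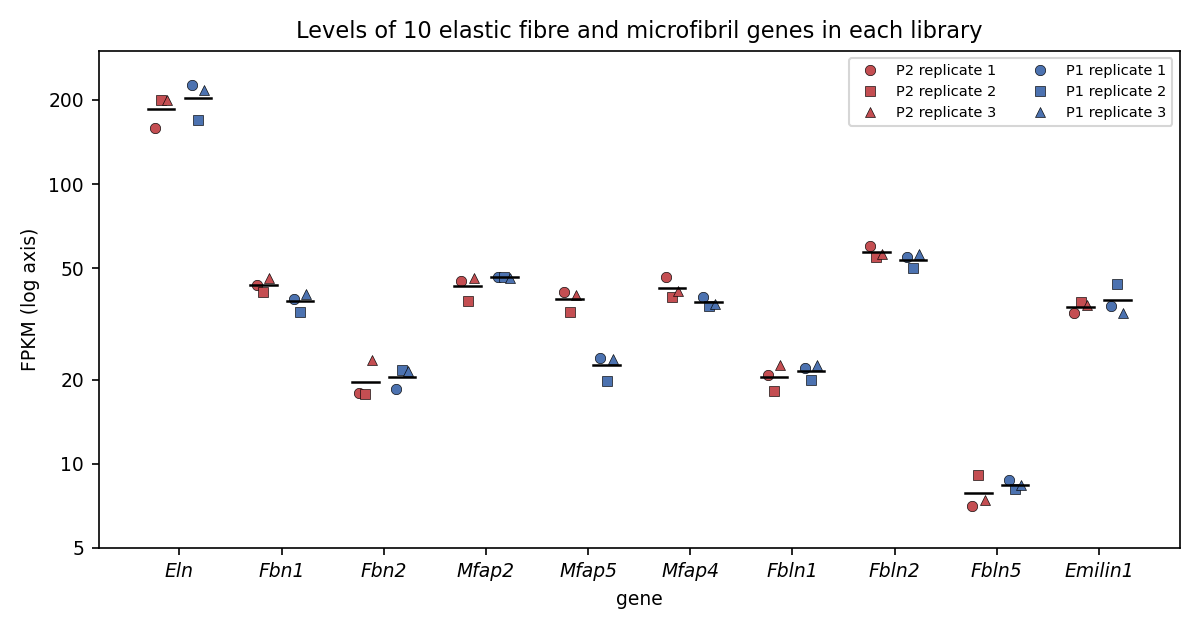
Level of each gene in FPKM on a logarithmic axis, with P2 libraries in red, P1 libraries in blue, 1 symbol per replicate number and a line at each mean. Eln stands far above the others, and Mfap5 is the gene whose ages lie farthest apart, 34.8 to 41.2 FPKM in P2 and 19.8 to 24.0 FPKM in P1.

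Eln, which encodes tropoelastin, was by far the most abundant of the 10 genes. It was measured at 159, 200.2 and 199 FPKM in P2 replicates 1 to 3, against 226, 169 and 217 FPKM in P1 replicates 1 to 3. The ages overlapped, with 1 low library in each, P2 replicate 1 and P1 replicate 2. The log2 change was -0.13 ± 0.14 (SE), with a 95% interval from -0.47 to 0.21 (limma, Benjamini-Hochberg adjusted p = 0.650). Averaged over the 6 libraries, Eln ranked 400 among the 13624 tested genes. Its transcripts made up 37.5% ± 3.74 of the summed FPKM of the 10 genes in P2 and 41.4% ± 3.36 in P1 (SD, n = 3 each).

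Because Eln is so abundant, the sum of the 10 genes follows it and hides the other members. That sum was 495 ± 22.1 FPKM in P2 and 491 ± 35.2 FPKM in P1 (SD, n = 3 each). Without Eln, the remaining 9 genes summed to 317, 291 and 320 FPKM in P2 replicates 1 to 3, against 289.8, 282 and 291 FPKM in P1 replicates 1 to 3. Leaving out Mfap5 as well gave 275, 256 and 279.8 FPKM in P2, against 266, 262 and 267 FPKM in P1, which overlapped. Most of the higher sum without Eln was thus Mfap5, whose share of the 10 genes was 7.82% ± 0.794 in P2 and 4.58% ± 0.154 in P1 (SD, n = 3 each).

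The fibrillins are the large rod-like proteins that polymerise into the microfibril backbone. Fbn1, which encodes fibrillin-1, the main fibrillin of postnatal tissue, was measured at 43.6, 41.0 and 46.0 FPKM in P2 replicates 1 to 3, against 38.9, 34.9 and 40.4 FPKM in P1 replicates 1 to 3. The ages did not overlap, with P2 replicate 2 just above P1 replicate 3 at the closest point. The log2 change was 0.19 ± 0.07 (SE), with a 95% interval from 0.02 to 0.36, and was not called (limma, Benjamini-Hochberg adjusted p = 0.234). It was 0.02 when libraries were rescaled to equal FPKM sums, a scaling under which the median of all genes was -0.14.

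Fbn2, which encodes fibrillin-2, the fibrillin best known from embryonic and fetal tissue, was lower than Fbn1 in every library. Its values were 17.8, 17.7 and 23.4 FPKM in P2 replicates 1 to 3, against 18.5, 21.6 and 21.4 FPKM in P1 replicates 1 to 3. The ages overlapped, with both the highest and the lowest library in P2, and the log2 change was -0.07 ± 0.12 (SE, 95% interval -0.36 to 0.23). The ratio of Fbn2 to Fbn1 was 0.409, 0.432 and 0.509 in P2 replicates 1 to 3, against 0.474, 0.619 and 0.530 in P1 replicates 1 to 3. P2 replicate 3 lay above P1 replicate 1, and on the log2 scale the ratio differed by -0.26 between the ages (exact permutation test, two-sided, p = 0.2, where 3 against 3 libraries cannot give less than 0.10). The SD of the log2 ratio was 0.155 in P2 and 0.185 in P1, and that test did not resolve a difference between the ages.

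The small microfibril-associated glycoproteins bind fibrillin and come from a pair of related genes, Mfap2 and Mfap5. Mfap2, which encodes MAGP-1, a component of most microfibrils, was measured at 45.1, 38.2 and 46.0 FPKM in P2 replicates 1 to 3, against 46.7, 46.7 and 46.0 FPKM in P1 replicates 1 to 3. Apart from a low P2 replicate 2 the values were nearly level, and the log2 change was -0.11 ± 0.07 (SE, 95% interval -0.29 to 0.07; limma, Benjamini-Hochberg adjusted p = 0.470). With equal FPKM sums it was -0.28 with an adjusted p of 0.0364 (limma), against a median of -0.14 for all genes. That setting called 2433 of 13624 genes, 2394 of them lower in P2.

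Mfap5 encodes MAGP-2, which differs from MAGP-1 in carrying an integrin-binding motif and has a more restricted expression. It was measured at 41.2, 34.8 and 40.0 FPKM in P2 replicates 1 to 3, against 24.0, 19.8 and 23.8 FPKM in P1 replicates 1 to 3. The ages were widely separated, with the lowest P2 library well above the highest P1 library. The log2 change was 0.76 ± 0.10 (SE), with a 95% interval from 0.52 to 0.99. Mfap5 had the 39th smallest p of the 13624 tested genes (unadjusted p = 0.000192, limma), yet its Benjamini-Hochberg adjusted p of 0.0669 missed the threshold. A log2 change larger than 0.5 in size was found for 3.47% of all tested genes and for no other of the 10.

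Whether Mfap5 passed the threshold depended on the settings. It passed with a pseudocount of 0.1 (log2 change 0.78, limma, Benjamini-Hochberg adjusted p = 0.0455) and with a filter of 5 FPKM (0.76, adjusted p = 0.0452). It also passed with equal FPKM sums (0.59, adjusted p = 0.0237), where 39 of 13624 genes were called higher in P2. Without genes listed at 0 in any library, a setting chosen after seeing the data, it passed too (0.76, adjusted p = 0.0188). Mfap5 missed with no filter (adjusted p = 0.112), median ratio scaling (0.0827), quantile normalization (0.076) and no variance trend (0.0959). It missed as well with array quality weights (0.0544), the replicate block (0.0545) and the fibroblast or atrial score as covariate (0.556 and 0.901). Without each library in turn the log2 change lay between 0.67 and 0.83 and the adjusted p between 0.133 and 0.237. The direction was higher in P2 under every setting tried.

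Set against each other, the pair of glycoprotein genes stood closer in P2 than in P1. The ratio of Mfap5 to Mfap2 was 0.913, 0.913 and 0.871 in P2 replicates 1 to 3, against 0.513, 0.425 and 0.517 in P1 replicates 1 to 3. Every P2 ratio lay above every P1 ratio. The values were known when this ratio was chosen, so it is a description and adds no support beyond Mfap5 itself. The log2 difference between the genes averaged -0.15 ± 0.04 in P2 and -1.02 ± 0.15 in P1 (SD, n = 3 each), and the ages differed by 0.87 (exact permutation test, two-sided, p = 0.1, the smallest that 3 against 3 libraries can give). A ratio within a library does not depend on the scaling of that library, apart from the added pseudocount.

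**Figure D2:**
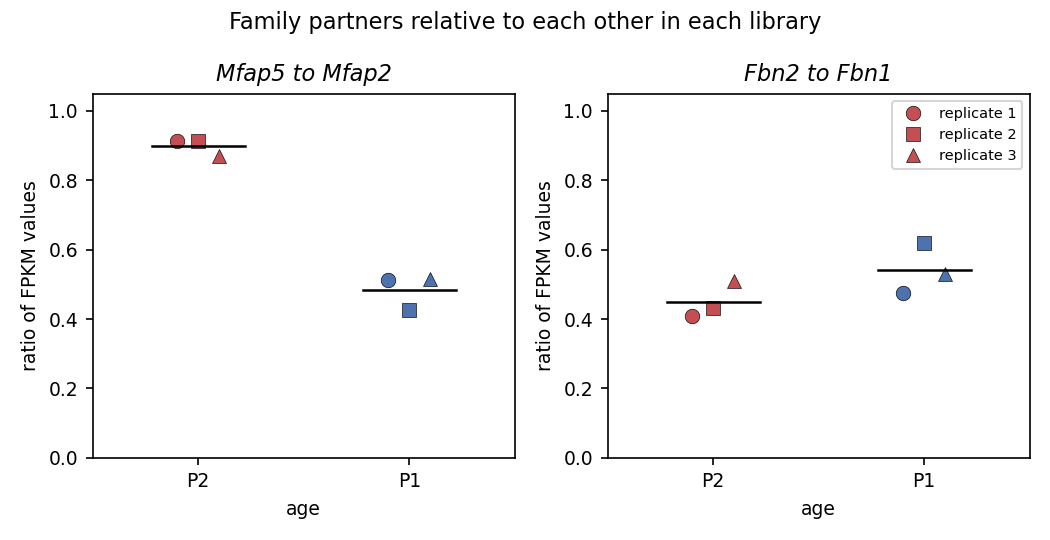
Ratio of the FPKM values of Mfap5 to Mfap2 (left) and of Fbn2 to Fbn1 (right) in each library, with P2 in red, P1 in blue, 1 symbol per replicate number and a line at each mean. The Mfap5 to Mfap2 ratio lies between 0.871 and 0.913 in P2 and between 0.425 and 0.517 in P1, while the ages overlap for Fbn2 to Fbn1.

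Mfap4, a fibrinogen-domain protein that binds elastin, fibrillin and collagen, is not related in sequence family to MAGP-1 and MAGP-2. It was measured at 46.4, 39.5 and 41.3 FPKM in P2 replicates 1 to 3, against 39.6, 36.6 and 37.3 FPKM in P1 replicates 1 to 3. P2 replicate 2 lay just below P1 replicate 1, so the ages overlapped by that pair alone. The log2 change was 0.16 ± 0.07 (SE, 95% interval -0.01 to 0.32; limma, Benjamini-Hochberg adjusted p = 0.286), and it was -0.01 with equal FPKM sums.

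The fibulins are calcium-binding glycoproteins that link elastin, microfibrils and basement membranes. Fbln2, the most abundant of the fibulin genes among the 10 and a partner of versican and nidogen, was measured at 60.0, 54.9 and 56.2 FPKM in P2 replicates 1 to 3, against 54.7, 50.3 and 56.2 FPKM in P1 replicates 1 to 3. The ages overlapped, and the log2 change of 0.09 ± 0.06 (SE, 95% interval -0.05 to 0.22) was -0.08 with equal FPKM sums. Fbln1, which encodes a fibulin of elastic fibre cores, basement membranes and heart cushions, was at 20.8, 18.1 and 22.6 FPKM in P2, against 22.04, 19.9 and 22.6 FPKM in P1. The highest value of each age was the same to 3 digits. The log2 change of Fbln1 was -0.07 ± 0.09 (SE, 95% interval -0.28 to 0.15).

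Fbln5, whose product binds tropoelastin and is needed for elastic fibre assembly in mice, had the lowest level of the 10. It was measured at 7.08, 9.11 and 7.42 FPKM in P2 replicates 1 to 3, against 8.73, 8.11 and 8.42 FPKM in P1 replicates 1 to 3. P2 replicate 2 was the highest of all 6 libraries and the other P2 libraries the lowest. The log2 change was -0.09 ± 0.09 (SE, 95% interval -0.31 to 0.13).

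Emilin1 encodes a protein of the interface between elastin and microfibrils that also restrains TGF-beta processing. It was measured at 34.5, 38.0 and 36.8 FPKM in P2 replicates 1 to 3, against 36.6, 43.9 and 34.5 FPKM in P1 replicates 1 to 3. The ages overlapped, and P1 replicate 2, the lowest P1 library for most of the other members, was the highest for Emilin1. Its log2 change was -0.07 ± 0.09 (SE, 95% interval -0.29 to 0.16), and 0.03 without P1 replicate 2.

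**Figure D3:**
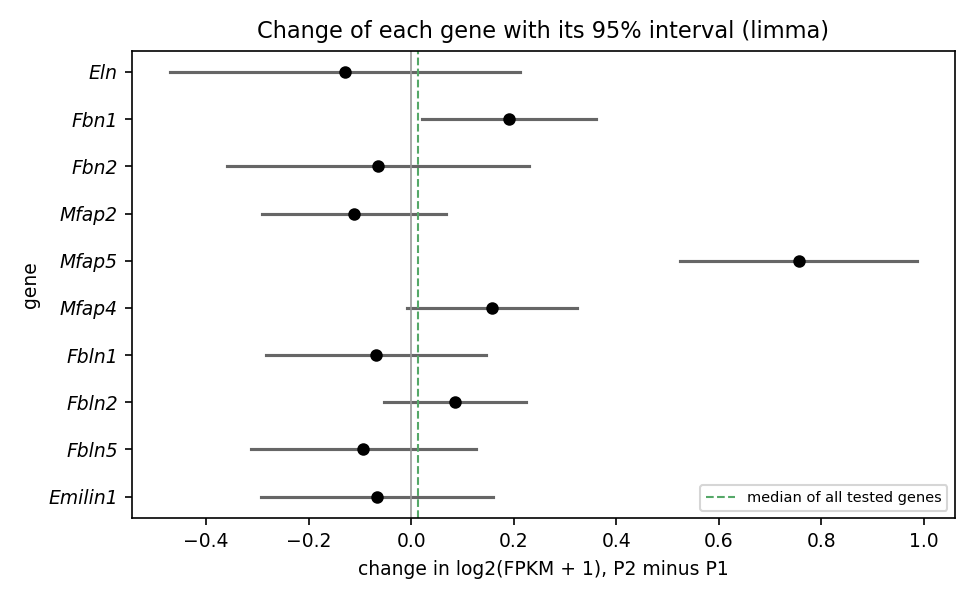
Change in log2(FPKM + 1), P2 minus P1, of each gene (point) with its 95% interval from limma (line), and the median of all tested genes as a dashed line at 0.01. The intervals of Mfap5 (0.52 to 0.99) and Fbn1 (0.02 to 0.36) lie above 0, and those of the other 8 genes include it.

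Counted together, 4 of the 10 genes had a higher and 6 a lower mean log2 value in P2, and 7 lay within 0.15 of no change, where 73.8% of all tested genes did. Their median log2 change was -0.07, beside 0.01 over all tested genes. With equal FPKM sums the medians were -0.23 and -0.14, and without P1 replicate 2 or P2 replicate 2 the median of the 10 was 0.00 and 0.01. The ages did not overlap, with P2 above P1, for Fbn1 and Mfap5, and with P2 below P1 for 0 of the 10. Over all tested genes these shares were 14.4% and 10.6%, or 25.0% in either direction, against 2 of 10 here.

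By level, Eln and Fbln2 stood at the top and Fbln5 at the bottom, and most neighbours between them overlapped. Eln was above Fbln2 in 6 of 6 libraries and Fbln2 above Mfap2 in 6 of 6, with ranges that did not overlap. Mfap2, Fbn1, Mfap4 and Emilin1, with means over the 6 libraries from 37.4 to 44.8 FPKM, had overlapping ranges from each to the next. All values of these 4 genes, 34.5 FPKM or more, lay above all values of Fbln1 and Fbn2, which reached 22.6 and 23.4 FPKM and overlapped each other. Mfap5 lay between these sets, at 34.8 to 41.2 FPKM in P2, within the range of the upper 4, and at 19.8 to 24.0 FPKM in P1, within reach of Fbln1 and Fbn2. Fbln5 lay below Fbn2 in 6 of 6 libraries.

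Within each age the members varied partly together. In P2, replicate 2 had the lowest value of the age for 7 of 10 members, and in P1, replicate 2 did for 7 of 10. Eln, Fbln5 and Emilin1 were the exceptions in P2, where replicate 1 was lowest for each, and Fbn2, Mfap2 and Emilin1 in P1. The same libraries had the lowest summed level of 8 fibroblast markers of their age. It was 790 FPKM in P2 replicate 2 against 823 and 854 in the other P2 libraries, and 699 FPKM in P1 replicate 2 against 805 and 811 in the other P1 libraries. The sum of 7 smooth muscle markers was lowest in them too, at 454 FPKM in P2 replicate 2 against 487 and 474. In P1 replicate 2 this sum was 461 FPKM, against 625 and 523 in the other P1 libraries. Acta2 was the largest part of the smooth muscle sums, and single markers did not all follow the sums. Myh11 was not lowest in either of these libraries, and Tcf21, a fibroblast marker, was highest of its age in P1 replicate 2. The number 2 names a replicate of each age, and the labels do not say whether it ties the libraries to each other. In bulk tissue, fewer cells of a type and less RNA per cell cannot be told apart.

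How alike a pair of genes was across the 6 libraries was measured as the root mean square difference of log2(FPKM + 1) after centring each gene on its own mean. Among the 45 pairs, Fbln2 and Mfap4 were closest (0.06), followed by Fbln1 and Mfap2 (0.07) and by Fbn1 and Fbln2 (0.08). Eln and Mfap5 were farthest apart (0.48). When each age was centred separately, the difference between Fbn1 and Mfap5 shrank to 0.06, against 0.29 with the ages together. Across all tested genes, the 3 nearest to Mfap5 were Arntl (0.07), Olfr558 (0.08) and Gsg1l (0.09). Arntl, a core clock transcription factor, was at 4.21, 3.37 and 4.23 FPKM in P2, against 2.05, 1.95 and 2.13 FPKM in P1. The 3 nearest to Eln were Ephx2 (0.06), Pigw (0.06) and Gm14286 (0.07). All libraries enter these distances, and with 6 of them many genes come close by any measure.

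Markers of the cells that make elastic fibres were compared beside these values. As background for the marker counts here and below, 7458 of 13624 tested genes were higher in P2. Of all tested genes, 0.161% were called and 18.6% had an unadjusted p under 0.05 (limma), and 25.0% did not overlap between the ages. Of 8 fibroblast markers, 6 were higher in P2, 0 were called and 3 had an unadjusted p under 0.05 (limma), with summed levels of 790 to 854 FPKM in P2 and 699 to 811 FPKM in P1. Thy1 (11.4 ± 0.407 against 8.49 ± 0.380 FPKM), Lum (77.0 ± 1.80 against 62.5 ± 5.03) and Dcn (240 ± 13.1 against 189 ± 13.3) were those whose ages did not overlap, each with P2 above P1 (SD, n = 3 each). Pdgfra and Tcf21, which define the cardiac fibroblast, had log2 changes of 0.04 each. Of 5 adventitial fibroblast markers, 5 were higher in P2, 0 were called and 2 had an unadjusted p under 0.05 (limma), with sums of 158 to 163 FPKM in P2 and 125 to 129.8 FPKM in P1. Cd34, which endothelial cells also express, was the largest part of that sum, at 114 ± 6.84 FPKM in P2 and 90.7 ± 1.79 FPKM in P1 (SD, n = 3 each). The part of these cells in the values of Mfap5 and Fbn1 was not tested.

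Smooth muscle makes much of the elastin of arteries. Of 6 tested smooth muscle markers, 3 were higher and 3 lower in P2, 0 were called and 0 had an unadjusted p under 0.05 (limma), and the summed level of all 7 was 454 to 487 FPKM in P2 and 461 to 625 FPKM in P1. Myh11, the myosin that defines the type, was at 3.77, 3.86 and 3.6 FPKM in P2 replicates 1 to 3, against 3.58, 3.70 and 3.78 FPKM in P1 replicates 1 to 3, which overlapped. The highest Acta2 (449.7 FPKM) and the highest Eln (226 FPKM) were both in P1 replicate 1. In P2, however, replicate 1 had the highest Acta2 of its age (315.5 FPKM) and the lowest Eln (158.9 FPKM). A link between these genes was not tested.

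Vessel markers were mostly higher in P2. Of 6 endothelial markers, 5 were higher in P2, 0 were called and 4 had an unadjusted p under 0.05 (limma), all of these higher, with sums of 282 to 288 FPKM in P2 and 246 to 273 FPKM in P1. Of 4 pericyte markers, 3 were higher in P2, 0 were called and 1 had an unadjusted p under 0.05 (limma), with sums of 202 to 212 FPKM in P2 and 168 to 184 FPKM in P1. Over all tested genes, 10.7% had an unadjusted p under 0.05 and were higher in P2 (limma). Neither sum overlapped between the ages, and neither did Mfap5. Taken as single genes, 25.0% of all tested genes did not overlap. Rgs5 was the only pericyte marker whose ages did not overlap, at 93.7 ± 6.25 FPKM in P2 and 72.4 ± 4.89 FPKM in P1 (SD, n = 3 each). Pdgfrb, Kcnj8 and Abcc9 overlapped. The part of these cells in the values of Mfap5 was not tested. Endocardial sums were 14.9 to 17.9 FPKM in P2 and 16.0 to 16.8 FPKM in P1, and leukocyte sums were 19.5 to 20.9 FPKM in P2 and 18.8 to 23.8 FPKM in P1.

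Atrial and epicardial markers were lower in P2. All 5 atrial markers were lower in P2, 1 of them, Bmp10, was called and 2 had an unadjusted p under 0.05 (limma). The ages overlapped for Nppa, Myl7 and Sln. Summed atrial levels were 541 to 771 FPKM in P2 and 947 to 1498 FPKM in P1. All 5 epicardial markers were lower in P2, 0 were called and 3 had an unadjusted p under 0.05 (limma), with sums of 32.5 to 40.1 FPKM in P2 and 41.5 to 46.2 FPKM in P1. Wt1 and Tbx18 overlapped between the ages, with log2 changes of -0.05 and -0.06. Valve and chondrocyte markers were low, with 2 of 4 tested, 0 called, 0 at an unadjusted p under 0.05 (limma) and sums of 7.83 to 8.77 FPKM in P2 and 7.24 to 8.97 FPKM in P1. Acan and Cnmd, which define cartilage, stayed under 0.8 FPKM in every library. With the fibroblast score as a covariate the log2 change of Mfap5 was 0.44 and that of Fbn1 -0.04, and with the atrial score they were 1.01 and 0.37. Both scores differ between the ages, and their part in these changes was not tested.

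Beyond the 10 genes, 75 further genes of elastic fibre assembly, turnover and signalling were followed, of which 59 were tested. In this set 29 were higher and 30 lower in P2, with a median log2 change of -0.01. Unadjusted p-values under 0.05 (limma) were found for 16 of the 59, 8 higher and 8 lower in P2. Beside them stand 18.6% of all tested genes, 10.7% higher and 7.89% lower. These shares, and the 25.0% of all tested genes that did not overlap between the ages, are the background for each role below. Adamtsl4 and Bmp10 were called, both lower in P2, where 0.0881% of all tested genes were called in that direction. Neither was called when any 1 library was left out, with adjusted p-values of 0.112 to 0.203 for Adamtsl4 and 0.0541 to 0.171 for Bmp10, so both calls rest on all 6 libraries. Without a filter on low levels the adjusted p of Adamtsl4 was 0.0735.

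**Figure D4:**
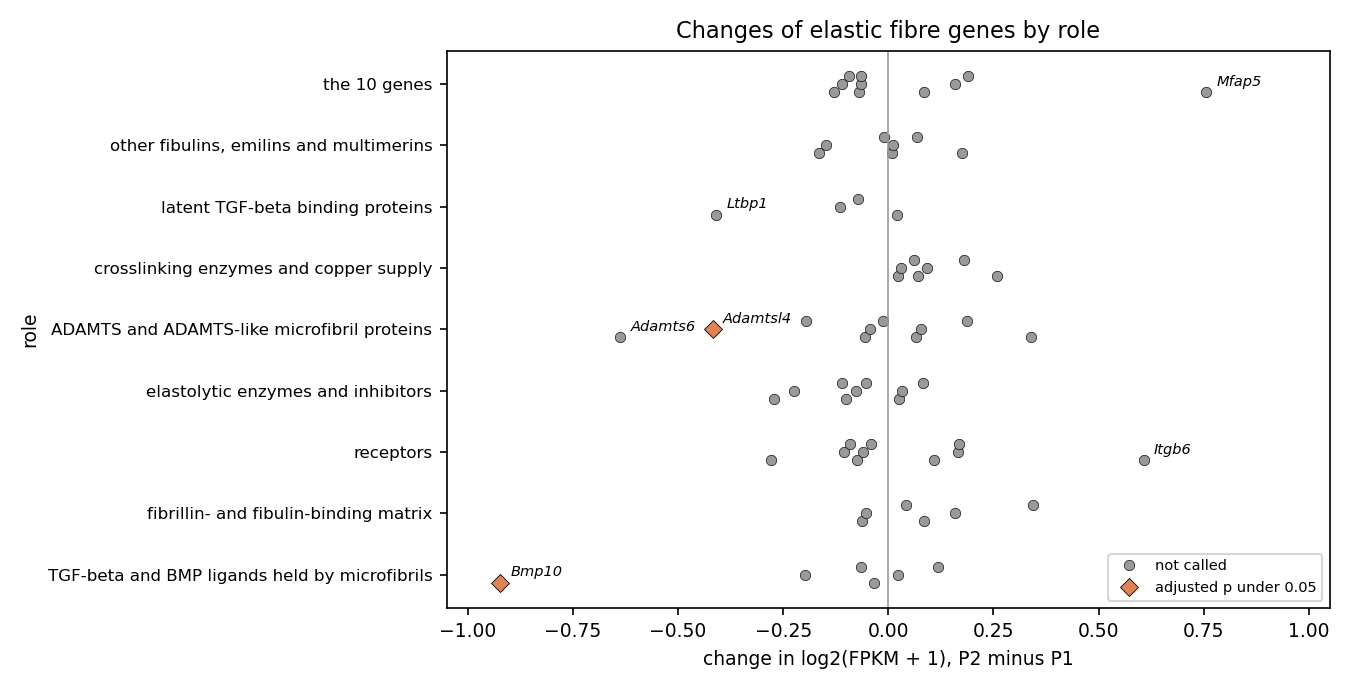
Change in log2(FPKM + 1), P2 minus P1, of the 10 genes and of 59 tested genes grouped by role, 1 point per gene, with called genes as orange diamonds. The crosslinking genes all lie at or above 0.02, and the called genes Adamtsl4 (-0.42) and Bmp10 (-0.92) lie below 0.

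The ADAMTS-like proteins bind fibrillin and take part in microfibril assembly, and several ADAMTS enzymes process fibrillins or associate with them. Adamtsl4, which is needed for the fibrillin zonules of the eye, fell to 5.89 ± 0.146 FPKM in P2, against 8.21 ± 0.0729 FPKM in P1 (SD, n = 3 each; log2 change -0.42 ± 0.04 SE, limma, Benjamini-Hochberg adjusted p = 0.0306). Its values were 5.78, 6.06 and 5.83 FPKM in P2 replicates 1 to 3, against 8.13, 8.21 and 8.27 FPKM in P1 replicates 1 to 3. The ages were far apart relative to their spread. Among the 10 genes of this role it was the only one called, with 4 higher and 6 lower in P2. Of the others, Adamts6 and Thsd4, named after their values were seen, did not overlap between ages, as for 25.0% of all tested genes. Adamts6 was at 4.11 ± 0.715 FPKM in P2 and 6.89 ± 0.188 FPKM in P1, and Thsd4, also known as ADAMTS-like 6, at 6.51 ± 0.798 FPKM in P2 and 4.91 ± 0.0703 FPKM in P1 (SD, n = 3 each).

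Latent TGF-beta binding proteins anchor latent TGF-beta to fibrillin. Ltbp1 was measured at 14.1, 14.7 and 15.8 FPKM in P2 replicates 1 to 3, against 20.1, 19.9 and 20.1 FPKM in P1 replicates 1 to 3. The ages were clearly separated, and the adjusted p was 0.0582 (log2 change -0.41 ± 0.05 SE, limma, Benjamini-Hochberg). It passed with median ratio scaling (adjusted p = 0.0466), with quantile normalization (0.0483) and with 4 other settings. The latter include equal FPKM sums and leaving out genes listed at 0, which was chosen after seeing the data. Ltbp1 missed with 12 settings (limma). Among them were each library left out (adjusted p 0.0794 to 0.236), the replicate block (0.21) and the fibroblast or atrial score as covariate (0.556 and 0.901). Ltbp3, at 15.7 ± 1.31 FPKM in P2 and 17.0 ± 0.420 FPKM in P1 (SD, n = 3 each), was the next by p, and of the 4 genes of this role 1 was higher and 3 were lower in P2.

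All 7 tested genes of elastin and collagen crosslinking, copper supply and procollagen processing were higher in P2, with a median log2 change of 0.07, 0 were called (smallest adjusted p 0.173) and 2 had an unadjusted p under 0.05 (limma). Of all 13624 tested genes, 7458 were higher in P2 and 18.6% had an unadjusted p under 0.05 (limma). Loxl1, a lysyl oxidase that acts on elastin, was at 20.4, 21.0 and 21.3 FPKM in P2 replicates 1 to 3, against 19.0, 17.1 and 18.9 FPKM in P1 replicates 1 to 3. Loxl2, a lysyl oxidase best known for acting on basement membrane collagen, was at 11.7, 13.8 and 14.8 FPKM in P2, against 11.2, 10.7 and 11.1 FPKM in P1. The ages did not overlap for either gene, as for 25.0% of all tested genes. Lox, of the same role, overlapped between the ages, at 11.2 ± 0.778 FPKM in P2 and 10.6 ± 1.06 FPKM in P1 (SD, n = 3 each). With equal FPKM sums the log2 change of Loxl1 was 0.02 and that of Loxl2 0.10, where the median of all genes was -0.14.

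Among other fibulins, emilins and multimerins, 7 genes were tested, 4 higher and 3 lower in P2, with 0 called and 1 at an unadjusted p under 0.05 (limma). Emilin2 was at 33.2, 28.5 and 31.8 FPKM in P2 replicates 1 to 3, against 34.9, 34.1 and 36.0 FPKM in P1 replicates 1 to 3, with every P2 library below every P1 library (log2 change -0.17 ± 0.06 SE). Mmrn1, a multimerin of vessels and platelets, was at 1.18 ± 0.194 FPKM in P2 and 1.41 ± 0.123 FPKM in P1 (SD, n = 3 each), with overlapping libraries. Efemp2, which encodes fibulin-4, a cofactor of lysyl oxidase in elastin crosslinking, had a log2 change of 0.01.

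Of the tested elastolytic enzymes and their inhibitors, 3 were higher and 6 lower in P2, with 0 called and 1 at an unadjusted p under 0.05 (limma). Timp3, an inhibitor of metalloproteinases, was at 25.5 ± 1.15 FPKM in P2 and 30.1 ± 3.84 FPKM in P1, and Mmp14, a membrane-bound metalloproteinase, at 43.2 ± 2.26 FPKM in P2 and 45.6 ± 1.83 FPKM in P1 (SD, n = 3 each). The macrophage elastase gene Mmp12 stayed at or under 0.271 FPKM, and Mmp7 was listed at 0 in all libraries.

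The receptor group holds integrin subunits and the subunits of the elastin receptor complex, of which 4 were higher and 6 lower in P2, with 0 called and 3 at an unadjusted p under 0.05 (limma). Itgb6, an integrin subunit that activates latent TGF-beta, was at 2.35, 1.61 and 1.94 FPKM in P2 replicates 1 to 3, against 1.13, 1.12 and 0.606 FPKM in P1 replicates 1 to 3. Itga8, a mesenchymal integrin subunit, was at 6.52 ± 0.429 FPKM in P2 and 8.12 ± 0.137 FPKM in P1 (SD, n = 3 each). The ages did not overlap for either gene, with P2 above P1 for Itgb6 and below it for Itga8. Of all tested genes, 25.0% did not overlap and 18.6% had an unadjusted p under 0.05 (limma).

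Of the matrix genes whose products bind fibrillins or fibulins, 4 were higher and 2 lower in P2, with 0 called and 2 at an unadjusted p under 0.05 (limma). Dcn, a small proteoglycan and also one of the fibroblast markers above, was at 251.8, 226 and 243 FPKM in P2 replicates 1 to 3, against 204, 178 and 186 FPKM in P1 replicates 1 to 3, and Nid1, a fibulin partner in basement membranes, was at 74.4 ± 1.36 FPKM in P2 and 66.5 ± 1.63 FPKM in P1 (SD, n = 3 each). Of the TGF-beta and BMP ligands, 2 were higher and 4 lower in P2. Bmp10, a ligand of trabecular and atrial heart muscle, was at 1.19, 1.23 and 1.42 FPKM in P2 replicates 1 to 3, against 3.2, 3.12 and 3.65 FPKM in P1 replicates 1 to 3. The ages were far apart. It fell to 1.28 ± 0.120 FPKM in P2, against 3.32 ± 0.285 FPKM in P1 (SD, n = 3 each; limma, Benjamini-Hochberg adjusted p = 0.0306), alongside the other atrial markers given above.

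In the GENCODE M21 annotation of GRCm38, the genes lie on separate chromosomes or far apart on the same one. Mfap5 (ENSMUSG00000030116) is on chromosome 6 from 122505845 to 122529290 on the plus strand and overlaps no other gene. Mfap2 is on chromosome 4 from 141010418 to 141015984, and Eln is on chromosome 5 from 134702593 to 134747323 on the minus strand. Eln, Fbn1, Fbn2 and Mfap4 each overlap 1 gene on the opposite strand, Gm30003, Gm9913, Gm26507 and Mapk7 in that order. The labels do not say whether fragments were assigned by strand, so reads of these 4 genes cannot be told apart from those of their partners where they overlap. Mapk7, which reaches the end of Mfap4, averaged 8.72 FPKM over the 6 libraries, Gm9913 1.12 and Gm26507 0.443 FPKM.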

How the data were processed

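FPKM values per gene in each of 6 libraries were computed by the authors and deposited as 1 table. The tools named in the submitters' processing notes are FastQC, TopHat2, R 3.2 and Cuffdiff 2.2.1. Not given in the sources used here are the build, the annotation, the strand setting and whether libraries were scaled to each other. Groups and replicate numbers came from the sample titles, and columns were matched by the sample descriptions. Symbols and positions came from GENCODE M21 (37605 of 39171 identifiers had a symbol).

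Values were used as deposited. The depth is unknown, because FPKM steps depend on transcript length. Among genes below 0.05 FPKM, the most frequent ratio between libraries, in bins of 0.01 on the log2 scale, held only 2.04% to 5.32% of genes, so whole fragments could not be recovered.

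The test was limma 3.58.1 (R 4.3.3) on log2(FPKM + 1), age as the only factor, with a variance trend. It covered the 13624 genes that averaged 1 FPKM or more, and all their p-values entered the Benjamini-Hochberg adjustment. Ratios of 2 genes were compared by an exact permutation test over libraries. All 10 genes were named, and of each other role the called genes or else the 2 with the smallest p. The members, lists and tests were chosen with earlier results of these data known. Alternatives were 15 planned settings (pseudocount, filter, scaling, variance model, weights, replicate block, each library left out) and 3 chosen after seeing the data. Scores are the mean log2 value of a marker list. Python 3.11.15 was used with numpy 2.4.6, pandas 2.3.3 and, for drawing, matplotlib 3.10.9.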

Additional observations from a re-analysis of the deposited data

How the results depend on the processing

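The number of genes called over all tested genes, 22 as reported, was 40 with a pseudocount of 0.1, 41 with a filter of 5 FPKM, 2433 with equal FPKM sums, 14 without a variance trend and 5 to 19 with each library left out. Of the settings chosen after seeing the data, leaving out genes listed at 0 in any library gave 111, the fibroblast score as covariate 1 and the atrial score 2. Of the 10 elastic fibre genes, 0 were called as reported, 1 with a pseudocount of 0.1, 1 with a filter of 5 FPKM and 1 without genes listed at 0 (Mfap5 each time), and 2 with equal FPKM sums (Mfap5 and Mfap2). Of the further genes, 2 were called as reported, 1 without a filter, 15 with equal sums, 4 without genes listed at 0, 0 with either covariate and 0 with any 1 library left out. The median log2 change of the 10 genes was -0.23 with equal sums, 0.14 with the atrial score and -0.07 to 0.01 with each library left out (-0.067 to 0.006).

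Several small changes turned sign. With equal sums Fbln2 was at -0.083, Mfap4 at -0.009 and Nid1 at -0.01, where the median of all genes was -0.137. With each library left out Fbn2 ranged from -0.192 to 0.001, Fbln1 from -0.138 to 0.012 (both highest without P2 replicate 2) and Emilin1 from -0.136 to 0.033 (highest without P1 replicate 2). With the fibroblast score Fbn1 was at -0.038, Fbln2 at -0.052, Fbln5 at 0.011 and Emilin1 at 0.200. With the atrial score Eln was at 0.076, Fbn2 at 0.125, Fbln1 at 0.214, Mfap2 at 0.088, Mmp14 at 0.084 and Ltbp3 at 0.092. The ratios of Mfap5 to Mfap2 and of Fbn2 to Fbn1 kept their direction under every setting run for them. The cause of these shifts was not tested.

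Replicate numbers are shared between the ages, and the labels do not say whether they pair the libraries. The correlations of deviations for the pairs 1, 2 and 3 were -0.011, 0.101 and 0.009. Those of the other combinations lay between -0.075 and 0.07. With 3 libraries per age, these values cannot settle whether the numbers pair the libraries. With the replicate block 5 genes were called over all genes and 0 of the further genes, and Mfap5 had an adjusted p of 0.0545. In the paired analysis the ratios differed by 0.87 for Mfap5 to Mfap2 and by -0.26 for Fbn2 to Fbn1, each with an exact p of 0.25, the smallest that 3 pairs can give. With 3 libraries per age and no counts, small differences cannot be resolved.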
